A study of Mus musculus with 34 samples.

Results

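The expression of 45 interferon-stimulated genes was followed in mouse liver before partial hepatectomy (PHx) and at 6 and 24 hours after it. PHx is the surgical removal of part of the liver. The genes were chosen by name, with earlier results of these data known. Their counts beside the share over all genes are therefore descriptions and not an independent test. The deposited table lists 78298 genes, and all 45 members were among the 14980 that passed the filter on low counts. Livers came from male C57/Bl6 mice of 8 to 12 weeks. SIRTintKO mice carried loxP sites around exon 4 of *Sirt1* together with Cre under the Villin promoter, which is active in the intestinal epithelium, and WT mice were littermates with the same loxP sites and no Cre. The deletion is therefore in the intestine and not in the organ sequenced, so liver *Sirt1* does not check the labels. Whole liver was sequenced as stranded mRNA in 6, 6 and 4 WT mice and in 6, 5 and 7 SIRTintKO mice at 0, 6 and 24 hours, where 0 hours is the untreated baseline.

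Interferons are secreted proteins that signal danger to neighbouring cells. Type I interferons act through IFNAR1 and IFNAR2 on JAK1 and TYK2, which activate a complex holding STAT2 and IRF9 that binds the interferon-stimulated response element (ISRE), whereas IFN-γ acts through its own receptor on JAK1 and JAK2, and its response is read from the gamma-activated sequence (GAS). In liver, the induced genes are known mainly from viral hepatitis, in hepatocytes as well as in Kupffer cells and infiltrating leukocytes. The members were read in role groups. The 12 type I targets were the *Ifit*, *Oas* and *Oasl* genes and *Isg15*, and the 7 IFN-γ targets were *Gbp2*, *Gbp3*, *Gbp7*, *Gbp9*, *Igtp*, *Irgm1* and *Irgm2*. The other 26 were 3 further immunity-related GTPases, 4 signalling factors, 4 sensors, 3 antigen processing genes and 12 other effectors and regulators. Many genes named as targets of one interferon type also respond to the other, so the group names are labels and not a readout of which interferon was present.

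The 200 bases before the transcription start are shown for 7 members, as RefSeq gives them on mouse build GRCm38.p6, because they show how the binding sequences of the pathway lie in front of members that moved differently. Capitals mark matches to an ISRE, searched on both strands as GAAA, any 2 bases and GAAA again, or to a GAS, searched as TTC, any 3 bases and GAA. Each line reads 5′ to 3′ towards the start.
*Ifit3*, chr19:34583329-34583528, plus strand: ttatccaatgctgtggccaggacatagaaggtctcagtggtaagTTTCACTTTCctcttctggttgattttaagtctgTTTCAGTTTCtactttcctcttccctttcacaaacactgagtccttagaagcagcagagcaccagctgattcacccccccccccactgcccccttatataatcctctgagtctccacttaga
*Isg15*, chr4:156200819-156201018, minus strand: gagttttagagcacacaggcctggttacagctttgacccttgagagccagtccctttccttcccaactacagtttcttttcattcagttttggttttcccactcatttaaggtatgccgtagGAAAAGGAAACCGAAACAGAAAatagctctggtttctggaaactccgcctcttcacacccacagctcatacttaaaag
*Gbp2*, chr3:142620463-142620662, plus strand: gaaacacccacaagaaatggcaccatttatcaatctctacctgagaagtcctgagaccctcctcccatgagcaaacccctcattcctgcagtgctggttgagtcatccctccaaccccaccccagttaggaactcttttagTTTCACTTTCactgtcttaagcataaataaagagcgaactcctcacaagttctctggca
*Irgm1*, chr11:48871421-48871620, minus strand: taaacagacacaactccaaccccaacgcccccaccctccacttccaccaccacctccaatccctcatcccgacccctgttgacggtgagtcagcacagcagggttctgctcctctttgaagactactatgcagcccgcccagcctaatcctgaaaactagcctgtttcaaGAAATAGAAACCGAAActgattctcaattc
*Tgtp1*, chr11:48992247-48992446, minus strand: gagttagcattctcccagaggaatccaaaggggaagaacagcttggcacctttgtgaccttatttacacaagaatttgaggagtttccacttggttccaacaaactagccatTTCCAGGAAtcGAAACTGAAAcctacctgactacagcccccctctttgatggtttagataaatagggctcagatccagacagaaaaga
*Irf1*, chr11:53769814-53770013, plus strand: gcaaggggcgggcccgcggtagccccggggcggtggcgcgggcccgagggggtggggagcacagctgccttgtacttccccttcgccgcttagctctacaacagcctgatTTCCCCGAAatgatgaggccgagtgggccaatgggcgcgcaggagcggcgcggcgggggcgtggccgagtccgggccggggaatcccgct
*Ifi205*, chr1:174031756-174031955, minus strand: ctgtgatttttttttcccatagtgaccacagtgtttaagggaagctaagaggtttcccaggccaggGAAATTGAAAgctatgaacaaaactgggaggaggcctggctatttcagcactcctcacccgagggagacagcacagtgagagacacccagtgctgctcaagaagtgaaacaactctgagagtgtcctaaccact
*Ifit3* held 2 ISRE matches, beginning 156 and 122 bases before the start. *Isg15* held 3 ISRE matches that overlapped each other between 78 and 66 bases before the start, and *Irgm1* held 2 overlapping ones close to its start, while *Gbp2* and *Ifi205* held 1 each in the stretch shown. *Tgtp1* held a GAS match and an ISRE match next to each other, and *Irf1* a GAS match alone. Windows of 300 bases, from 250 before to 50 after the start, were found for 36 of the 45 members. An ISRE match lay in 21 of these 36 members (58.3%), against 3.99% of all 27025 genes with a promoter searched, and a GAS match in 10 (27.8%), against 9.55% of genes. Among type I targets 8 of 11 held an ISRE match, and among IFN-γ targets all 6 with a window did, 3 of them beside a GAS match. None of the 3 antigen processing genes held an ISRE match. A match is a description of letters and not evidence of binding.

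Levels are given as counts scaled to a common library size (CPM) after TMM scaling and are compared between livers and not between genes. Differences are log2 fold changes ± SE from a quasi-likelihood fit to all 34 libraries in edgeR, with p-values adjusted over all 14980 genes. A gene was called changed at an adjusted p under 0.05 with an absolute log2 fold change over 1. Library totals ranged from 14892122 to 23480492 counts. The livers taken at 0 hours carry numbers of another series than the livers after PHx, so any difference in handling between these series coincides with PHx, whereas 24 against 6 hours lies within 1 series. In bulk tissue, fewer cells of a type and less RNA per cell cannot be told apart. Some livers stood apart within their group over all genes: on the first principal component, which held 40.7% of the variance, WT livers 1 and 2 at 24 hours lay at 86.21 and 95.94 and WT livers 3 and 4 at -8.019 and -17.64, while 6 of the 7 SIRTintKO livers at 24 hours lay between 49.65 and 80.29 and liver 5 at 8.102. Of the 45 members, 37 had their lowest WT value at 24 hours in liver 2, and 26 had their highest SIRTintKO value at 24 hours in liver 2. Some counts and genes at 24 hours are therefore also given without WT livers 1 and 2, or without liver 2 of both genotypes. Both choices were made after these values were seen. For members with their lowest WT and highest SIRTintKO value in liver 2, leaving it out lowers SIRTintKO minus WT by construction.

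Interferon-stimulated genes were lower in both genotypes 6 hours after PHx. In WT livers 18 of the 45 members were called lower and 0 higher, against 8.4% of all genes called lower and 7.17% called higher. In SIRTintKO livers 19 were called lower and 0 higher, against 8.7% and 7.86% of all genes. Of the 23 members called in either genotype, 14 were called in both, which is 14 of the 18 WT members and 14 of the 19 SIRTintKO members. The same overlap over all genes was not counted, so this share is not read as particular to the members. The fitted change was below 0 for 38 of 45 members in WT and for 41 of 45 in SIRTintKO livers, where 51.3% and 50.4% of all genes lay above 0. The median log2 fold change of the members was -0.89 in WT and -0.78 in SIRTintKO livers, beside medians over all genes of 0.02 and 0.01. The heat map of all members by liver shows lower values at 6 hours in most rows.

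**Figure D1:**
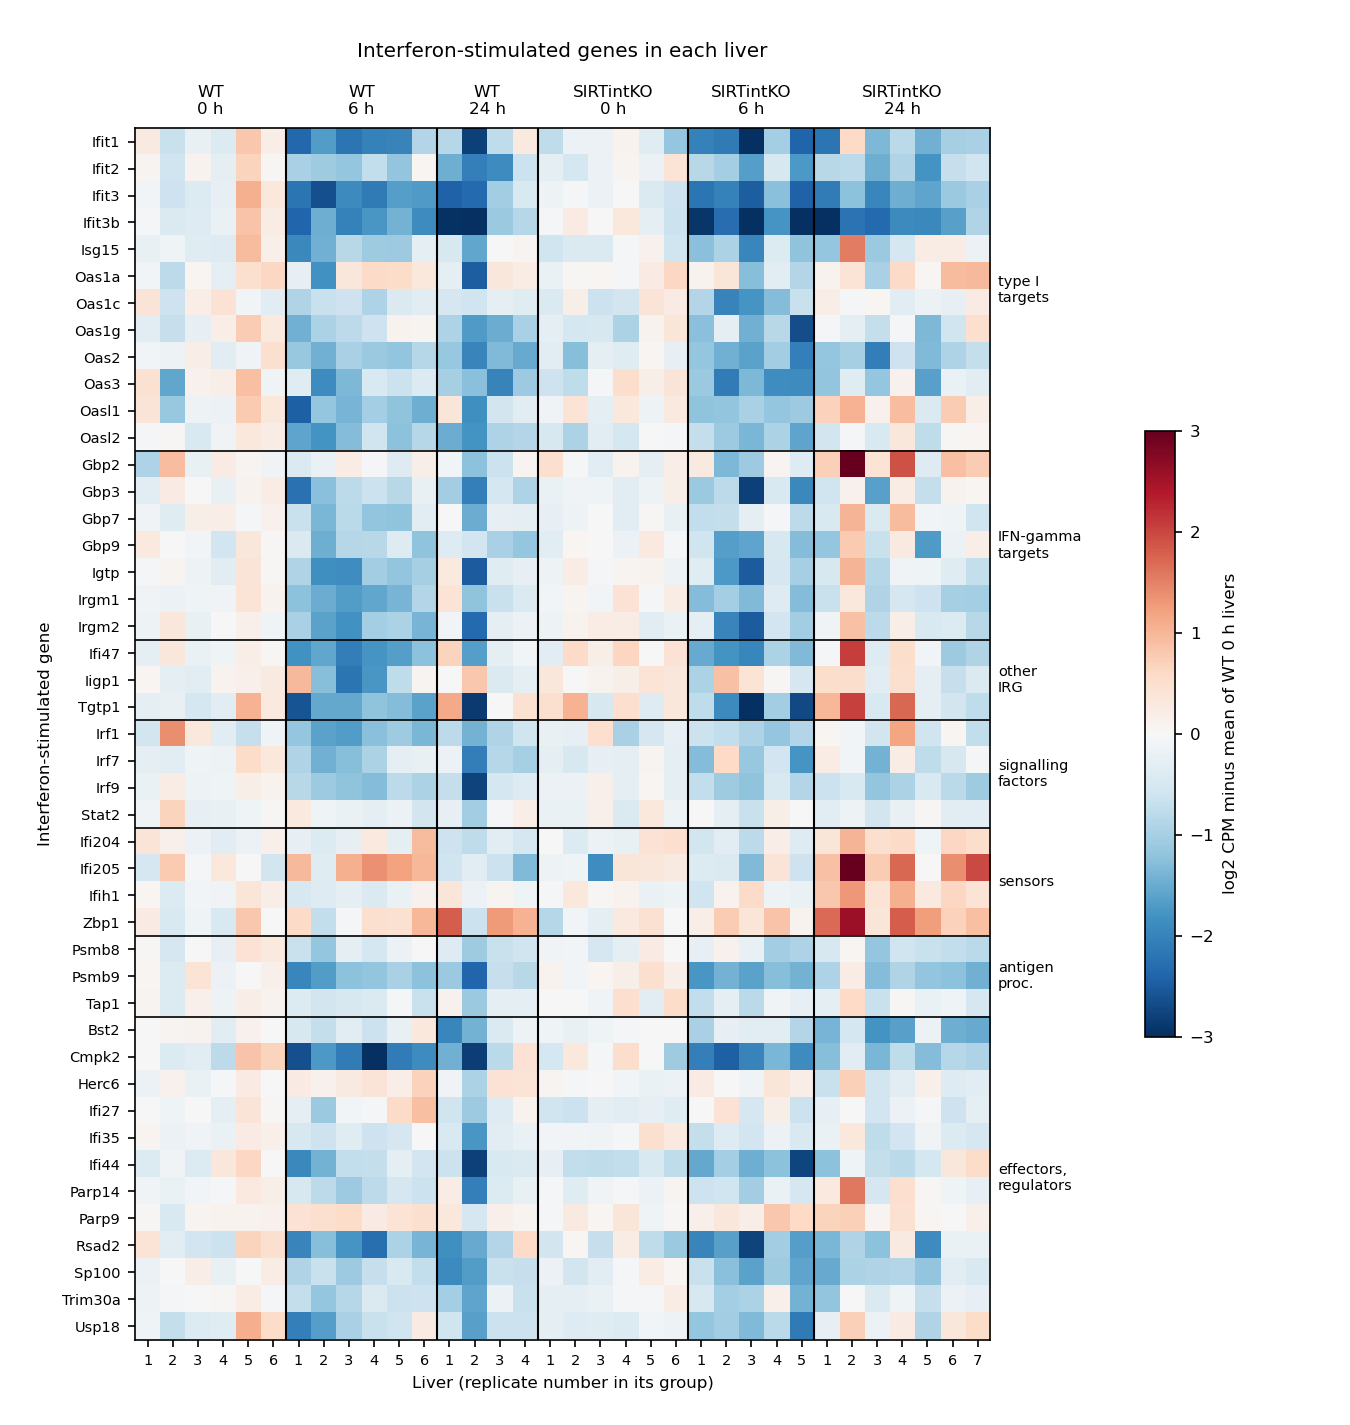
Each row is 1 of the 45 members, grouped by role, and each column 1 of the 34 livers, ordered by genotype and time. Colour gives log2 CPM minus the mean of the WT livers at 0 hours, and saturates at 3 log2 units in either direction. The columns at 6 hours are mostly below the baseline in both genotypes, and at 24 hours the mean over the members is lowest among WT livers in liver 2, at 1.69 log2 CPM, and highest among SIRTintKO livers in liver 2, at 3.75 log2 CPM.

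Most type I targets fell at 6 hours. In all, 8 of 12 were called lower in WT (*Ifit1*, *Ifit3*, *Ifit3b*, *Isg15*, *Oas2*, *Oas3*, *Oasl1* and *Oasl2*) and 8 of 12 in SIRTintKO livers (*Ifit1*, *Ifit2*, *Ifit3*, *Ifit3b*, *Oas1c*, *Oas2*, *Oas3* and *Oasl1*). Their median log2 fold change was -1.15 in WT and -1.18 in SIRTintKO livers. *Ifit3*, whose protein binds other IFIT proteins that capture viral RNA, is given in full. The lowest, median and highest WT livers had 8.02, 11.2 and 26.3 CPM of *Ifit3* at 0 hours and 1.91, 3.00 and 3.92 CPM at 6 hours. SIRTintKO livers had 8.07, 11.2 and 12.7 CPM at 0 hours and 2.63, 2.96, 2.14, 5.16 and 2.22 CPM at 6 hours. In neither genotype did a liver at 6 hours reach the lowest liver at 0 hours. *Ifit3* fell by 2.16 ± 0.31 on the log2 scale in WT livers, 4.47-fold, with an edgeR adjusted p of 2.68e-06, and by 1.83 ± 0.33 in SIRTintKO livers, with an adjusted p of 6.88e-05.

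*Ifit3b*, a near copy of *Ifit3* whose reads Salmon may share between both genes, changed by -1.98 ± 0.45 in WT and -2.82 ± 0.51 in SIRTintKO livers, with adjusted p-values from edgeR of 0.00082 and 7.68e-05. *Ifit1*, which binds viral RNA lacking the host's cap methylation, had 5.41, 8.69 and 15.4 CPM in the lowest, median and highest WT livers at 0 hours and 1.60, 2.06 and 4.67 CPM at 6 hours. No WT liver overlapped between these times, whereas 1 SIRTintKO liver at 6 hours, with 4.25 CPM, lay above the lowest SIRTintKO liver at 0 hours, with 3.79 CPM. *Ifit1* fell by 1.90 ± 0.43 in WT livers (edgeR adjusted p 0.000834) and by 1.66 ± 0.46 in SIRTintKO livers (adjusted p 0.00514).

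The 2′-5′ oligoadenylate synthetases make the second messenger that activates RNase L, an enzyme that degrades RNA. *Oas2* fell by 1.17 ± 0.23 in WT livers and by 1.11 ± 0.24 in SIRTintKO livers, with edgeR adjusted p-values of 0.000135 and 0.000568. *Oas3* had 0.255, 1.11 and 1.91 CPM in the lowest, median and highest WT livers at 0 hours and 0.179, 0.631 and 0.729 CPM at 6 hours, with overlap. In SIRTintKO livers *Oas3* had 0.526, 1.03 and 1.46 CPM at 0 hours and 0.385, 0.141, 0.314, 0.182 and 0.180 CPM at 6 hours, without overlap. These are few counts per liver, down to 2 in 1 library. *Oas1c*, an *Oas1* paralog without the catalytic activity of *Oas1a*, had a log2 fold change of -0.79 ± 0.27 in WT, short of the fold threshold, and of -1.39 ± 0.30 in SIRTintKO livers, which was called. The difference between these changes, the interaction, was -0.60 ± 0.41 and did not pass, with an adjusted p of 1. *Oas1a*, a catalytically active *Oas1* gene, differed by 0.06 ± 0.38 and -0.45 ± 0.41, and *Oas1g* by -0.63 ± 0.37 and -0.99 ± 0.41, neither called. *Oas1a*, *Oas1c* and *Oas1g* are close paralogs, so their separate values depend on how reads were divided among them.

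*Oasl1*, a synthetase-like protein without the catalytic activity that restrains translation of *Irf7*, fell by 1.52 ± 0.30 in WT and by 1.24 ± 0.31 in SIRTintKO livers (edgeR adjusted p 0.000165 and 0.00214). *Isg15* encodes a ubiquitin-like protein that is attached to other proteins during the interferon response. Its level was 7.86, 9.14 and 20.2 CPM in the lowest, median and highest WT livers at 0 hours and 2.63, 4.81 and 8.40 CPM at 6 hours, with overlap. *Isg15* was called lower in WT livers, at -1.13 ± 0.37 with an edgeR adjusted p of 0.0157, and had -0.78 ± 0.39 in SIRTintKO livers, with an adjusted p of 0.114.

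The IFN-γ targets also lay lower at 6 hours. All 7 were below 0 in both genotypes, 3 were called in WT (*Igtp*, *Irgm1* and *Irgm2*) and 5 in SIRTintKO livers (these 3 with *Gbp3* and *Gbp9*). Their median log2 fold change was -0.93 in WT and -1.05 in SIRTintKO livers. The immunity-related GTPases attack the membranes around intracellular parasites, and the IRGM proteins keep them inactive on the cell's own membranes. *Irgm1* had 46.5, 48.8 and 70.1 CPM in the lowest, median and highest WT livers at 0 hours and 16.3, 19.2 and 28.6 CPM at 6 hours. In SIRTintKO livers *Irgm1* had 49.3, 52.7 and 70.6 CPM at 0 hours and 21.3, 25.8, 21.1, 39.99 and 21.2 CPM at 6 hours. The 2 times did not overlap in either genotype. *Irgm1* fell by 1.37 ± 0.23 in WT and by 1.12 ± 0.24 in SIRTintKO livers, with edgeR adjusted p-values of 1.88e-05 and 0.000452.

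*Irgm2* fell by 1.28 ± 0.32 and 1.05 ± 0.34 in WT and SIRTintKO livers, and *Igtp*, which encodes IRGM3, by 1.28 ± 0.34 and 1.05 ± 0.35. *Gbp2*, a guanylate-binding protein that coats intracellular pathogens, stood apart from its group: the lowest, median and highest WT livers had 1.37, 2.67 and 5.21 CPM at 0 hours and 1.97, 2.49 and 3.18 CPM at 6 hours, and its log2 fold changes were -0.20 ± 0.41 in WT and -0.43 ± 0.43 in SIRTintKO livers. The *Gbp* and *Irgm* genes are families of similar sequence, and their counts share the limit given for the *Oas1* genes.

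Of the 3 other GTPases, *Tgtp1* and *Ifi47* were called lower in both genotypes. *Ifi47* encodes IRG-47, a further immunity-related GTPase. Its lowest, median and highest WT livers had 16.2, 19.1 and 25.1 CPM at 0 hours and 4.55, 5.92 and 8.25 CPM at 6 hours, and SIRTintKO livers had 15.9, 24.4 and 30.9 CPM and then 6.80, 5.63, 4.97, 10.1 and 7.73 CPM. Neither genotype overlapped between the times. *Ifi47* fell by 1.70 ± 0.39 in WT and 1.77 ± 0.41 in SIRTintKO livers (edgeR adjusted p 0.000856 and 0.00107). *Tgtp1* fell by 1.74 ± 0.55 and 2.09 ± 0.59 (adjusted p 0.0132 and 0.00576), again without overlap. *Iigp1*, another effector GTPase of this family, was not called: its log2 fold changes were -0.42 ± 0.36 in WT and -0.12 ± 0.38 in SIRTintKO livers, and single WT livers at 6 hours ranged from 52.3 to 465 CPM.

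Among the signalling factors, *Irf1*, a transcription factor that IFN-γ induces through the GAS element shown above, had 19.1, 26.3 and 81.0 CPM in the lowest, median and highest WT livers at 0 hours and 9.53, 12.3 and 14.8 CPM at 6 hours, without overlap. It fell by 1.55 ± 0.31 in WT livers, with an edgeR adjusted p of 0.000209, and had -0.66 ± 0.32 in SIRTintKO livers, with an adjusted p of 0.105. *Irf9*, the DNA-binding subunit of the type I complex, was called lower in WT livers at -1.03 ± 0.22 and had -0.74 ± 0.23 in SIRTintKO livers. *Stat2*, its partner in that complex, had -0.19 ± 0.18 and -0.06 ± 0.19, which was not called. *Irf7*, which amplifies type I interferon production, had -0.82 ± 0.32 and -0.35 ± 0.33, and was not called either.

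None of the 4 sensors was called at 6 hours. *Ifih1*, which encodes the double-stranded RNA sensor MDA5, had log2 fold changes of -0.28 ± 0.17 in WT and -0.02 ± 0.18 in SIRTintKO livers. *Zbp1*, a sensor of Z-form nucleic acids that can start cell death, had 0.32 ± 0.35 and 0.52 ± 0.36. The antigen processing genes were split. *Psmb9*, a catalytic subunit of the immunoproteasome, had 7.87, 10.7 and 13.9 CPM in the lowest, median and highest WT livers at 0 hours and 2.63, 4.43 and 5.29 CPM at 6 hours, without overlap. It fell by 1.39 ± 0.24 in WT and 1.67 ± 0.26 in SIRTintKO livers, with edgeR adjusted p-values of 4.6e-05 and 1.1e-05. *Tap1*, the peptide transporter, starts 226 bases from *Psmb9* on the other strand, so that both share 1 promoter, and had -0.43 ± 0.20 and -0.56 ± 0.21. *Psmb8*, another immunoproteasome subunit, had -0.47 ± 0.20 and -0.30 ± 0.22. Neither was called.

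Of the 12 other effectors and regulators, *Cmpk2* and *Rsad2* were called lower in both genotypes and *Sp100* in SIRTintKO livers. *Cmpk2*, a mitochondrial nucleotide kinase, showed the largest fall of all members in WT livers. Its lowest, median and highest WT livers had 2.96, 4.67 and 9.37 CPM at 0 hours and 0.307, 1.12 and 1.49 CPM at 6 hours, and SIRTintKO livers had 2.42, 5.08 and 7.49 CPM and then 1.15, 0.845, 1.19, 1.94 and 1.32 CPM. No liver overlapped between the times in either genotype. *Cmpk2* fell by 2.46 ± 0.41 in WT livers, 5.51-fold, and by 1.95 ± 0.42 in SIRTintKO livers (edgeR adjusted p 1.92e-05 and 0.000552), on as few as 5 counts in 1 library. *Rsad2*, which encodes the antiviral enzyme viperin, lies beside *Cmpk2* on chromosome 12 in the opposite orientation, 12763 bases from start to start, and fell by 1.66 ± 0.39 and 1.34 ± 0.42 (adjusted p 0.00117 and 0.011). *Sp100*, a protein of nuclear bodies, had -0.77 ± 0.21 and -1.10 ± 0.22. *Bst2*, the tetherin that holds virus particles at the cell surface, had -0.31 ± 0.25 and -0.44 ± 0.27, and *Ifi27*, a mitochondrial interferon-induced protein, had 0.11 ± 0.23 and 0.35 ± 0.24. *Parp9*, an ADP-ribosyltransferase partner, was the only member whose WT value passed the adjusted p in the upward direction, at 0.42 ± 0.14 with an edgeR adjusted p of 0.02, short of the fold threshold.

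**Figure D2:**
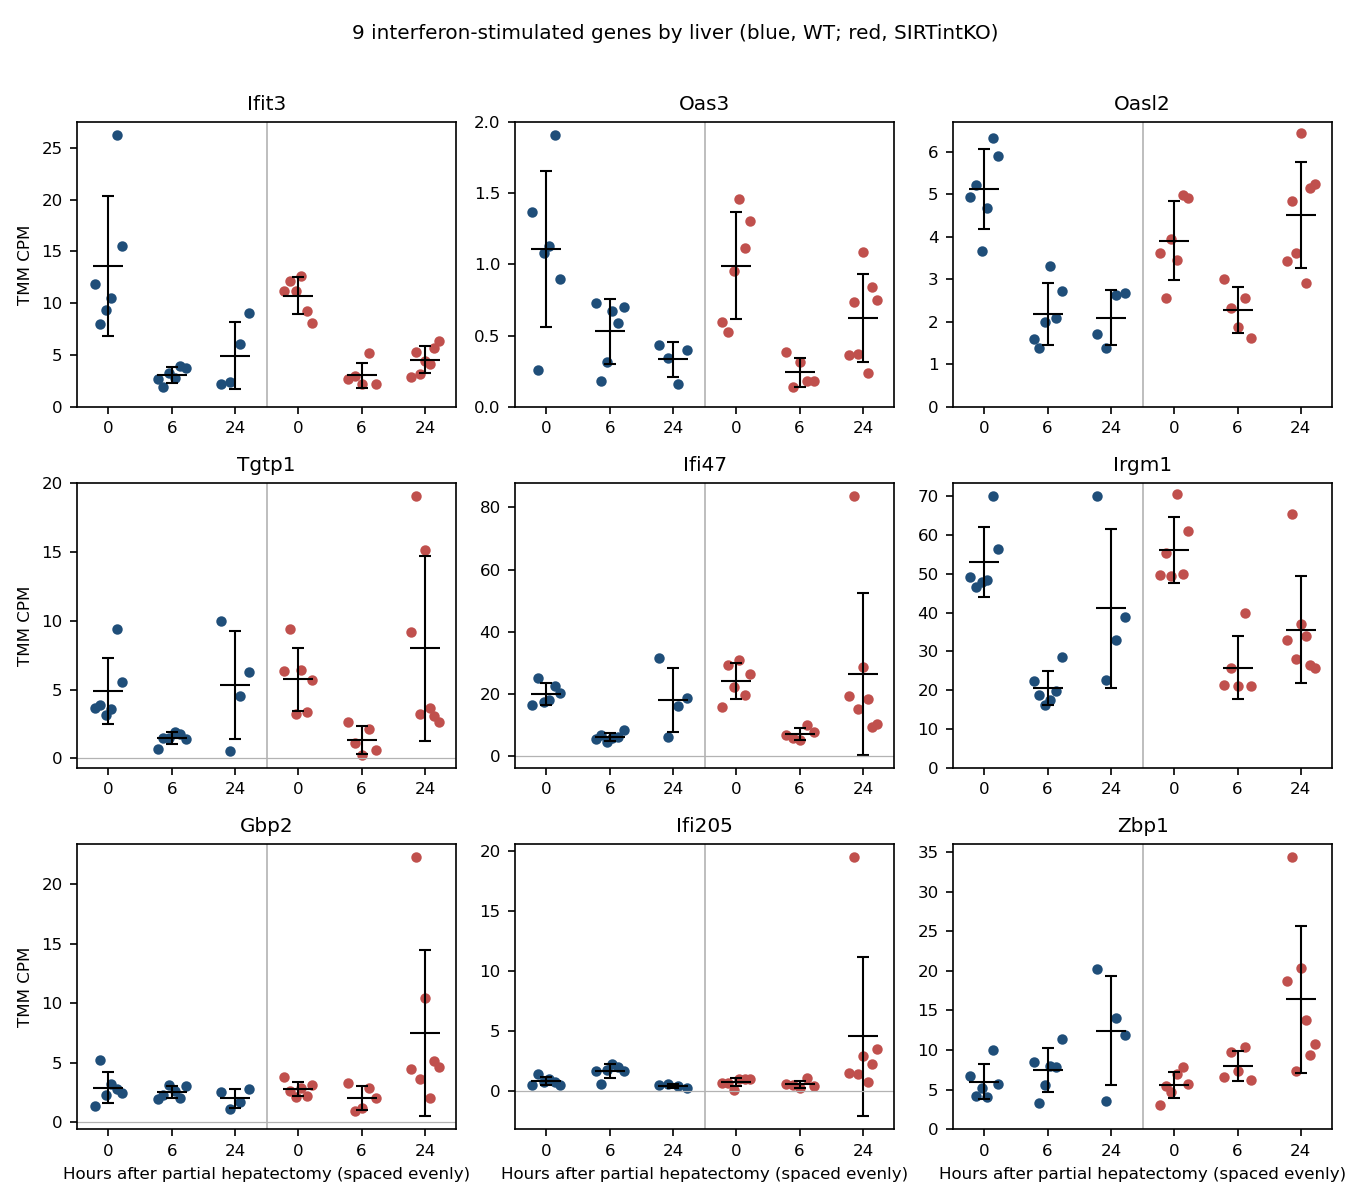
Each point is 1 liver, in CPM on a linear axis that differs between panels, for 9 members in the 6 genotype and time groups (blue WT, red SIRTintKO), with the mean and SD of each group as a black mark and bar. *Ifit3*, *Irgm1*, *Ifi47* and *Tgtp1* are low at 6 hours in both genotypes, and *Ifi205* reaches 19.4 CPM in SIRTintKO liver 2 at 24 hours, above every WT liver.

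Several measures of cell content were also lower at 6 hours. The summed level of 9 T and NK cell markers ranged from 5.22 to 8.24 CPM in WT livers at 0 hours and from 1.46 to 2.24 CPM at 6 hours, and in SIRTintKO livers from 5.87 to 7.95 CPM and from 0.629 to 1.52 CPM. The 6 Kupffer cell markers, resident macrophage genes, summed to a median of 420.4 CPM at 0 hours and 329.5 CPM at 6 hours in WT livers, and to 495 and 323 CPM in SIRTintKO livers. The 5 B cell markers summed to a median of 5.57 CPM at 0 hours and 1.78 CPM at 6 hours in WT livers, and to 5.09 and 2.77 CPM in SIRTintKO livers. The 6 hepatocyte markers went from a median of 71857 to 55352 CPM in WT and from 73543 to 59518 CPM in SIRTintKO livers. Median sums of monocyte and macrophage markers and of plasmacytoid dendritic cell markers were also lower in both genotypes. Neutrophil markers went from a median of 15.6 to 14.2 CPM in WT and rose from 8.98 to 11.5 CPM in SIRTintKO livers. Sinusoidal endothelial markers went from 143 to 138 CPM in WT and from 140 to 101 CPM in SIRTintKO livers. Only 3 of the 9 T and NK cell markers and 2 of the 5 B cell markers passed the filter on low counts. The part of these cells in the fall of the members was not tested.

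At 24 hours most type I targets were still below the baseline in WT livers. Against 0 hours, 11 members were called lower in WT livers and 1 higher, beside 7.4% and 8.32% of all genes. Of the 11, 7 were type I targets (*Ifit2*, *Ifit3*, *Ifit3b*, *Oas1g*, *Oas2*, *Oas3* and *Oasl2*), 1 an IFN-γ target (*Gbp3*), and the others were *Irf1*, *Psmb9* and *Sp100*. The median log2 fold change was -1.37 for the type I targets and -0.51 for the IFN-γ targets, and 0.13, 0.09 and -0.14 were the values of *Tgtp1*, *Iigp1* and *Ifi47*. *Oas2* had 3.66, 4.32 and 6.48 CPM in the lowest, median and highest WT livers at 0 hours and 2.03, 1.09, 1.78 and 1.54 CPM at 24 hours, without overlap, and was lower by -1.54 ± 0.26 with an edgeR adjusted p of 5.73e-05. *Ifit2*, an IFIT protein with a part in cell death, was lower by -1.56 ± 0.35 and *Oas1g* by -1.48 ± 0.44 (adjusted p 0.000967 and 0.0102), both without overlap. *Ifit3* had 2.21, 2.40, 6.02 and 9.06 CPM in WT livers 1 to 4, of which liver 4 reached the range of the baseline. Without WT livers 1 and 2, which leaves 2 WT livers at 24 hours, 1 member was called against 0 hours and the type I median was -0.89. Without liver 2 of both genotypes 8 were called in WT livers, 1 of them higher, with *Gbp3*, *Irf1*, *Oas1g* and *Psmb9* lost. Shares over all genes are not given for these smaller fits, so the lost calls are not read as particular to the members.

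In SIRTintKO livers 4 members were called lower at 24 than at 0 hours, beside 11.1% of all genes, and 3 higher, beside 11.9%. The lower ones were *Ifit3*, *Ifit3b*, *Psmb9* and *Bst2*. *Ifit3* had 2.83, 4.45 and 6.32 CPM in the lowest, median and highest SIRTintKO livers at 24 hours, all below the baseline livers, at -1.23 ± 0.29 with an edgeR adjusted p of 0.000669. *Psmb9* had -1.05 ± 0.23 and *Bst2* -1.02 ± 0.24, close to the fold threshold, and each lost its call when single livers were left out. The higher ones were *Gbp2*, *Ifi205* and *Zbp1*, of which *Gbp2* had 0.85 and was not called without liver 2 of both genotypes. The medians were -0.23 for the type I targets and -0.11 for the IFN-γ targets, beside 0.04 for all genes. *Zbp1* was called higher in both genotypes. It had 4.09, 5.43 and 10.03 CPM in the lowest, median and highest WT livers at 0 hours and 20.2, 3.60, 13.98 and 11.9 CPM at 24 hours, so that WT liver 2 stayed within the baseline range, while SIRTintKO livers went from 3.08, 5.55 and 7.80 CPM to 7.39, 13.8 and 34.4 CPM. Its log2 fold changes were 1.06 ± 0.38 in WT and 1.54 ± 0.34 in SIRTintKO livers (edgeR adjusted p 0.0292 and 0.000412). The WT call was lost without any 1 of 5 livers, with values from 0.72 to 1.37 over all such fits.

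Between 6 and 24 hours, within the livers taken after PHx, 24 of 45 members lay above 0 in WT livers and 38 of 45 in SIRTintKO livers. In neither genotype was a member called lower (0 of 45), beside 2.72% of all genes in WT and 3.91% in SIRTintKO livers. In WT livers 5 were called higher (*Tgtp1*, *Cmpk2*, *Ifi47*, *Oasl1* and *Irgm1*), beside 4.44% of all genes, and in SIRTintKO livers 14, beside 6.7%. Of the 16 in either, *Ifi47*, *Oasl1* and *Tgtp1* were called in both, which is 3 of 5 WT and 3 of 14 SIRTintKO members. Here too, the overlap over all genes was not counted. The other SIRTintKO members were *Gbp2*, *Gbp3*, *Ifi205*, *Ifi44*, *Ifit1*, *Isg15*, *Oas1c*, *Oas3*, *Rsad2*, *Usp18* and *Zbp1*. In WT livers the median of the type I targets was 0.02 and that of the IFN-γ targets 0.50, whereas in SIRTintKO livers they were 0.97 and 0.95, and all 12 and all 7 genes lay above 0. These values and those against 0 hours share the livers at 24 hours.

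*Tgtp1* had 0.656, 1.49 and 1.90 CPM in the lowest, median and highest WT livers at 6 hours and 10.02, 0.514, 4.56 and 6.27 CPM at 24 hours, where liver 2 was below every liver at 6 hours. SIRTintKO livers had 2.63, 1.13, 0.252, 2.12 and 0.599 CPM at 6 hours and 2.62, 3.66 and 19.1 CPM at 24 hours, with overlap at the edge. The rise was 1.87 ± 0.59 in WT and 2.55 ± 0.59 in SIRTintKO livers (edgeR adjusted p 0.0283 and 0.00177). *Ifi47* rose by 1.56 ± 0.42 and 1.89 ± 0.40 and *Oasl1* by 1.01 ± 0.32 and 1.69 ± 0.31. The count of members called in WT livers ran from 1, without liver 1 at 24 hours, to 9, without liver 2 at 24 hours, and the WT rises of *Tgtp1*, *Ifi47*, *Oasl1* and *Irgm1* were not called without liver 1, nor that of *Cmpk2* without liver 4. In SIRTintKO livers the count was 9 without liver 5 at 6 hours, and 10 without liver 2 of both genotypes at 24 hours, where *Isg15*, *Ifit1*, *Gbp3* and *Zbp1* lost their calls.

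Other members called higher in SIRTintKO livers were not called in WT livers. *Isg15* had 4.23, 5.28, 2.58, 7.77 and 4.37 CPM in SIRTintKO livers at 6 hours and 4.58, 9.10 and 30.01 CPM in the lowest, median and highest at 24 hours, with overlap. It rose by 1.22 ± 0.38 (edgeR adjusted p 0.0165), a call lost without liver 2 of both genotypes, and had 0.67 ± 0.40 in WT livers. *Usp18*, a protease that removes ISG15 and also restrains the type I receptor, rose by 1.42 ± 0.34 in SIRTintKO livers and had -0.05 ± 0.36 in WT livers. *Oas1c* rose by 1.44 ± 0.29 without overlap between livers, with 0.24 ± 0.31 in WT livers. None of these 3 genes passed the test of the difference between genotypes (edgeR adjusted p 0.616, 0.112 and 0.126), so a rise in one genotype and not in the other was not shown for them.

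**Figure D3:**
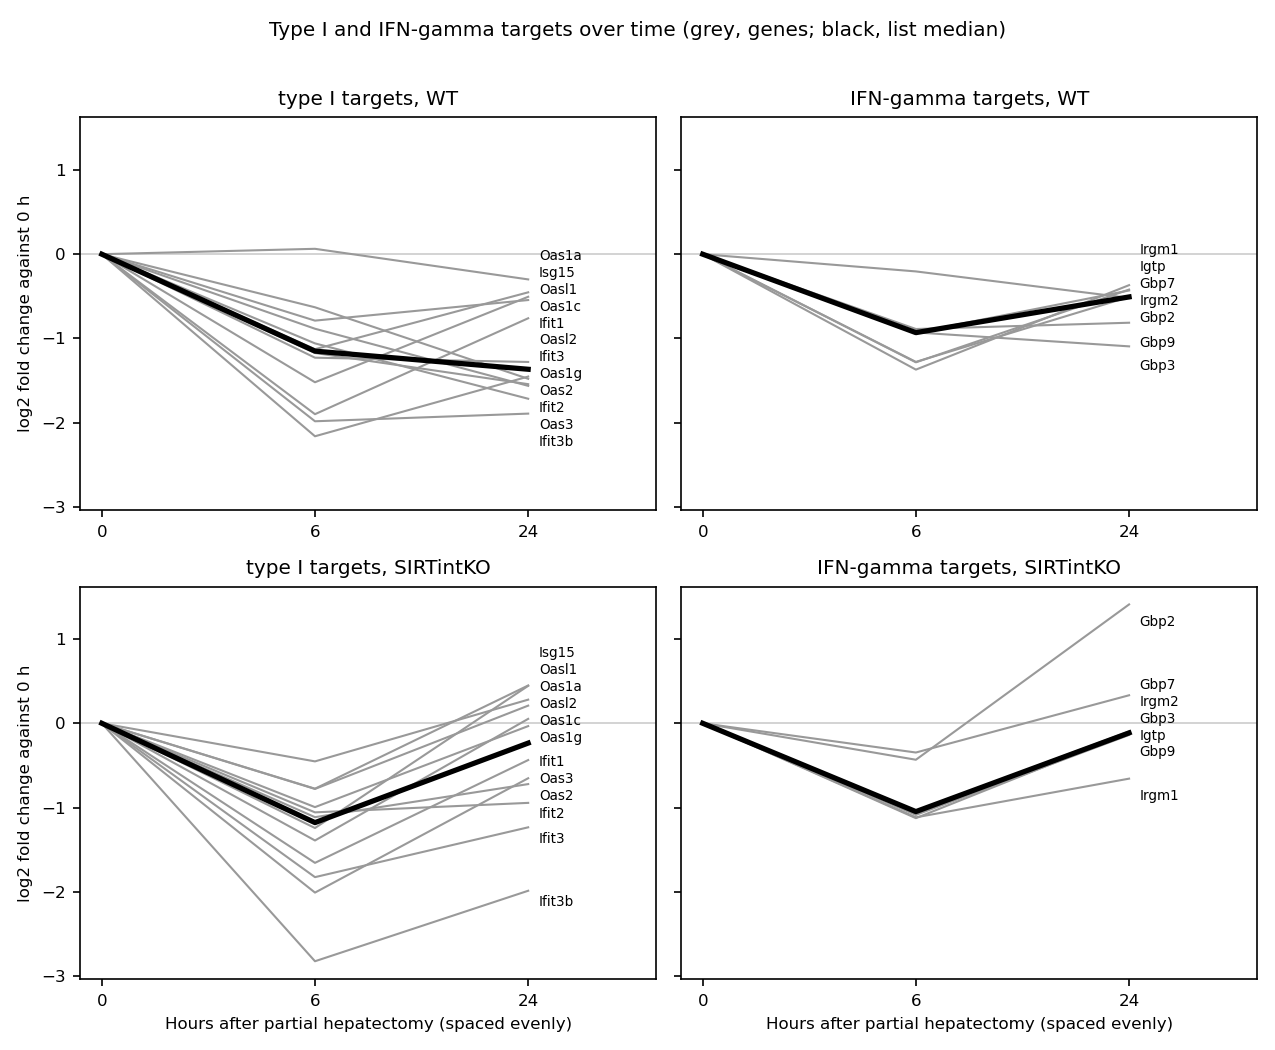
Each line follows 1 member over 0, 6 and 24 hours, evenly spaced along the horizontal axis, as the fitted log2 fold change from 0 hours in the same genotype, for type I and IFN-γ targets in WT and SIRTintKO livers. Nearly all lines fall to 6 hours, and at 24 hours the type I median is -1.37 in WT and -0.23 in SIRTintKO livers. *Ifit3* and *Ifit3b* are low at 24 hours in both genotypes, at -1.45 and -1.89 in WT and -1.23 and -1.99 in SIRTintKO livers. The direct test of the genotypes' change from 0 to 24 hours called 0 members in edgeR. The thick black line is the median of the genes in a panel.

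No member was called between the genotypes before PHx or at 6 hours. At 0 hours 0 members passed in edgeR and 0 had an unadjusted p under 0.05, beside 0% of all genes called and 1.07% at that unadjusted p. The median difference, SIRTintKO minus WT, was -0.24 for type I and -0.05 for IFN-γ targets. At 6 hours 0 members passed, also beside 0% of all genes, and 4 had an unadjusted p under 0.05, beside 6.52%, the smallest adjusted p being 0.736. The medians were -0.32 and 0.21. The interval of the difference at 6 hours ran from -0.68 to 0.67 for *Ifit3* and from -0.14 to 0.81 for *Irgm1*. Differences within these intervals were not excluded for these genes. DESeq2 also called 0 members at both times, beside 6 and 9 of all 14980 genes. In the direct test of the change from 0 to 6 hours between genotypes 0 members were called by edgeR, beside 0% of all genes. DESeq2 called 0 members, beside 2 of all 14980 genes. In edgeR 0 members had an unadjusted p under 0.05, beside 3.05% of all genes.

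At 24 hours 4 members were called higher in SIRTintKO than in WT livers, beside 1.38% of all genes called higher, and 0 lower, beside 1.3%. At an unadjusted p under 0.05 there were 12 of 45, beside 23.4% of all genes, which is close to that share. They were *Ifi205* and *Ifi204*, of the PYHIN family of DNA-binding proteins, *Gbp2*, and *Oasl2*, a synthetase-like antiviral protein. *Ifi205* had 0.492, 0.628, 0.471 and 0.249 CPM in the 4 WT livers and 0.798, 2.29 and 19.4 CPM in the lowest, median and highest of 7 SIRTintKO livers. No WT liver reached the lowest SIRTintKO liver, and the highest was SIRTintKO liver 2. The difference was 3.28 ± 0.68, or 9.72-fold, with an edgeR adjusted p of 0.00779, and it was 2.17 with an adjusted p of 0.0132 without SIRTintKO liver 2.

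*Ifi204* had 3.01, 2.69, 3.67 and 3.24 CPM in WT livers and 4.27, 6.81 and 9.54 CPM in the lowest, median and highest SIRTintKO livers, again without overlap. Its difference was 1.10 ± 0.25 (edgeR adjusted p 0.0118). *Ifi204* and *Ifi205* belong to a family of similar sequence, so reads may be divided between them. *Oasl2* had 1.72, 1.37, 2.62 and 2.69 CPM in WT livers and 2.91, 4.84 and 6.45 CPM in SIRTintKO livers, without overlap, at 1.10 ± 0.25 (adjusted p 0.0133). *Gbp2* overlapped: WT livers had 2.52, 1.09, 1.68 and 2.84 CPM and SIRTintKO livers 2.02, 4.65 and 22.2 CPM, at 1.87 ± 0.46 (adjusted p 0.0191). *Ifih1* passed the adjusted p but not the fold threshold, at 0.69 ± 0.19 (adjusted p 0.0295).

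These 4 calls depended on the livers included. Without liver 2 of both genotypes, *Ifi205* alone was called, and *Gbp2*, *Ifi204* and *Oasl2* had 1.10, 0.93 and 0.93, with edgeR adjusted p-values of 0.125, 0.0607 and 0.0672. WT liver 2 was the lowest WT liver for these 3 genes, and SIRTintKO liver 2 the highest of its group for *Gbp2* and *Ifi204*. Leaving them out lowers such differences by construction, so the lost calls are not an independent check. Without WT liver 2 alone 2 members were called, and without SIRTintKO liver 5 there were 8. Without WT livers 1 and 2, *Ifi204* and *Oasl2* had 0.97 and 0.77 and lost their calls. When the fit held only the livers compared, 0 were called, with edgeR adjusted p-values from 0.256 to 0.27 for the 4 genes. That fit also called 0 of all genes tested, so the loss was not particular to the members. Over all members, 35 of 45 lay above 0 at 24 hours, against 47.7% of all genes, with a median of 0.43. The type I median was 0.49 and the IFN-γ median 0.60, and the IFN-γ median was 0.15 without liver 2 of both genotypes.

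**Figure D4:**
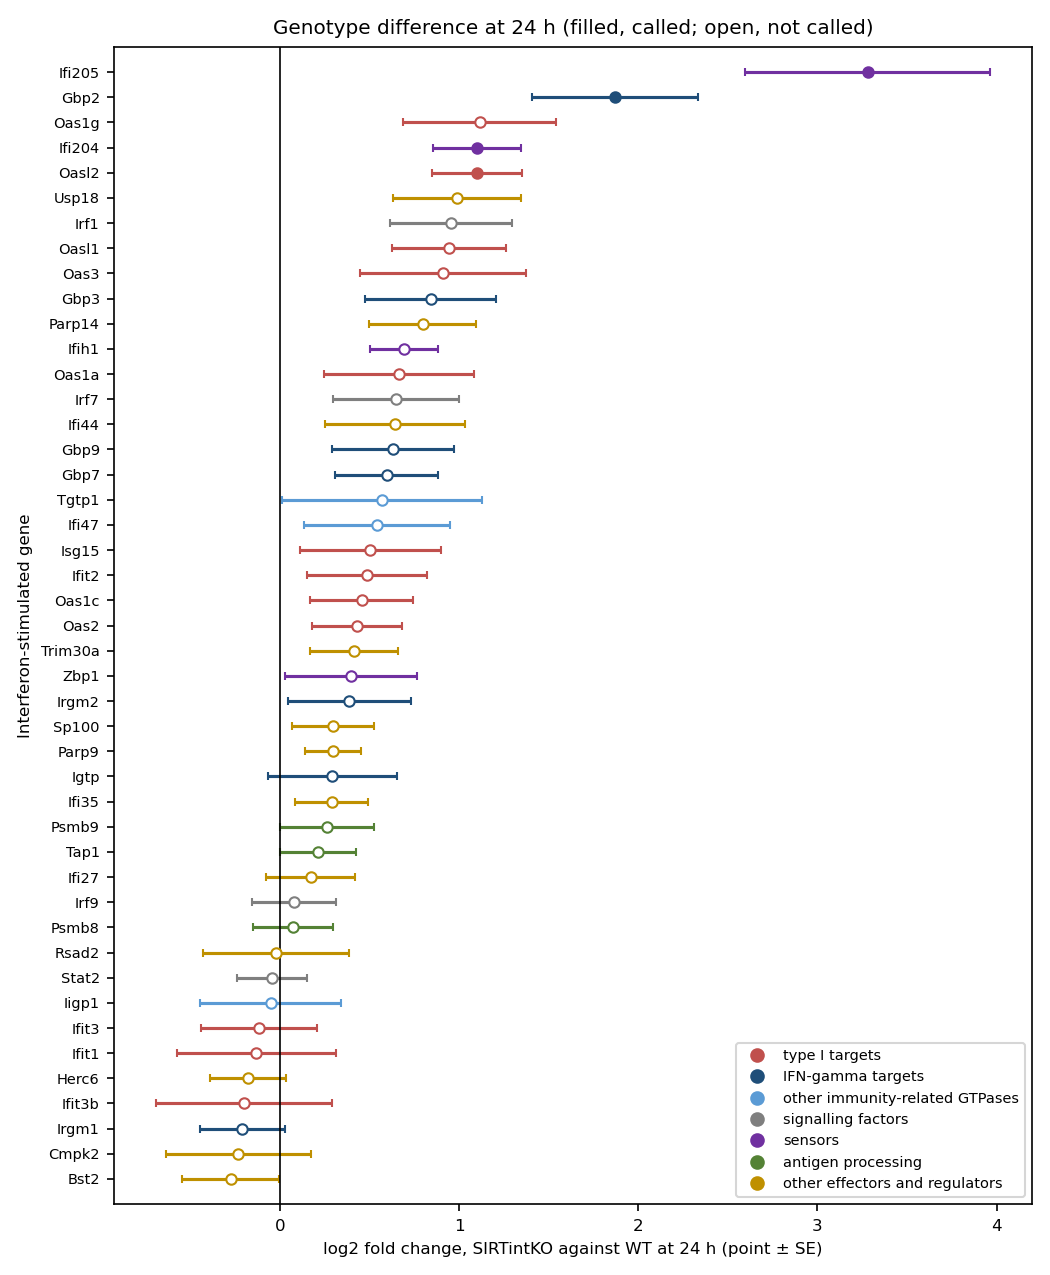
Each point is the fitted log2 fold change of 1 member between SIRTintKO and WT livers at 24 hours, with its SE as a bar, grouped by role, and filled points are called. Of 45 members 35 lie above 0, and the filled points are *Ifi205* at 3.28, *Gbp2* at 1.87, and *Oasl2* and *Ifi204* at 1.10.

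The direct test of the genotypes' change from 0 to 24 hours called 0 members in edgeR, beside 0.00668% of all genes. Of the 45, 12 had an unadjusted p under 0.05, beside 12.7% of all genes, and DESeq2 called 2, beside 96 of all 14980 genes. The smallest adjusted p was 0.0699, for *Oasl2*, with an interaction of 1.49 ± 0.33. The change from 6 to 24 hours, a test added after the data had been seen, differed for *Ifi205* by 4.77 ± 0.91 (edgeR adjusted p 0.0297) and for *Ifi204* by 1.54 ± 0.34 (adjusted p 0.0351), beside 0.167% of all genes called higher. At an unadjusted p under 0.05 there were 12 of 45, beside 19.7%. *Ifi204* had -0.66 ± 0.25 in WT and 0.88 ± 0.23 in SIRTintKO livers, and *Ifi205* had -1.86 ± 0.68 and 2.91 ± 0.61. The median of this interaction was 0.78 for type I targets and 0.18 for IFN-γ targets, and the latter was -0.26 without liver 2 of both genotypes. Of the calls in this interaction, *Ifi205* remained and *Ifi204* was lost without these livers, 0 members were called when the fit held only the groups compared and 0 with a replicate block, and the count ran from 0 to 4 with single livers left out.

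Markers of infiltrating myeloid cells differed between livers at 24 hours. The 6 neutrophil markers summed to 108, 88.0, 13.3 and 7.31 CPM in WT livers 1 to 4 and to 22.1, 93.5 and 947 CPM in the lowest, median and highest SIRTintKO livers, where the highest was liver 2, the liver with the highest *Ifi205*, *Gbp2* and *Isg15*. The next highest was liver 3, at 206 CPM, which had the lowest mean of this group over the type I targets (0.83 log2 CPM), the IFN-γ targets (2.48) and all members (2.57). The 7 monocyte and macrophage markers summed to 108, 74.6, 43.3 and 36.2 CPM in WT livers and to 49.7, 139 and 347 CPM in SIRTintKO livers, the highest again in liver 2. WT livers 1 and 2 had the higher myeloid sums of their group, and of these liver 1 had the highest WT value in 19 members and liver 2 the lowest in 37. Hepatocyte markers summed to a median of 71857 CPM at 0 hours and 34935 CPM at 24 hours in WT livers, and to 73543 and 53145 CPM in SIRTintKO livers. The part of these cells in the differences was not tested.

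At 6 hours in WT livers the median log2 fold change was -0.93 for the 21 members with an ISRE match and -0.96 for the 15 without, and 10 and 7 of them were called lower. In SIRTintKO livers the medians were -1.05 and -0.78, with 11 and 6 called. Between 6 and 24 hours in WT livers 2 of 21 and 3 of 15 were called higher, with medians of 0.24 and 0.03, and in SIRTintKO livers 9 of 21 and 3 of 15, with medians of 0.95 and 0.36. These shares were not tested against each other. *Oasl1*, *Oasl2*, *Ifi47*, *Irf7*, *Irf9*, *Tap1*, *Psmb9*, *Ifi44*, *Cmpk2*, *Herc6* and *Sp100* held neither motif in the windows searched.

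The rest of the pathway was read from 36 genes chosen beside the members, of which 29 were tested. The interferon genes themselves were at the limit of detection: *Ifnb1* had 1 count in 1 of 34 libraries, *Ifng* 8 counts in 6, and *Ifna2*, *Ifna4*, *Ifnl2* and *Ifnl3* 0 counts in 34. At 6 hours 1 of the 29 was called higher and 2 lower in WT livers, beside 7.17% and 8.4% of all genes, and 1 higher and 3 lower in SIRTintKO livers, beside 7.86% and 8.7%. *Ptpn2*, a phosphatase that switches off JAK and STAT proteins, had 1.19 ± 0.32 and 1.22 ± 0.34. *Irf5*, a transcription factor of myeloid cells, had -1.41 ± 0.16 and -1.17 ± 0.17, and *Dhx58*, which encodes the RNA sensor LGP2 and is itself interferon-induced, had -1.28 ± 0.23 and -1.36 ± 0.25. No receptor or kinase gene was called at 6 hours.

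At 24 against 0 hours 4 pathway genes were called higher in WT and 7 in SIRTintKO livers, with 0 lower in either, beside 8.32% and 11.9% of all genes called higher and 7.4% and 11.1% called lower. The feedback inhibitor *Socs1* had 3.65 ± 0.86 and 2.24 ± 0.82, and *Ifngr1*, the ligand-binding chain of the IFN-γ receptor, had 1.10 ± 0.24 and 1.30 ± 0.21. *Socs3* was called in WT livers at 1.65 ± 0.57. In SIRTintKO livers *Ifngr2* had 1.08 ± 0.18, the type III receptor gene *Ifnlr1* 2.59 ± 0.69 and *Sting1*, the adaptor of DNA sensing, 1.26 ± 0.26. *Ikbke*, a kinase that activates IRF3, had 1.95 ± 0.29 there. *Ikbke* was the 1 pathway gene called between genotypes at 24 hours, at 1.13 ± 0.32 with an edgeR adjusted p of 0.0327, beside 1.38% of all genes called higher. A fit of only the groups compared called 0 genes in that contrast. *Socs3*, *Ifngr2*, *Ifnlr1* and *Sting1* were not called between genotypes, so a change particular to a genotype was not shown for them.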

How the data were processed

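Livers of WT and SIRTintKO mice were profiled by RNA sequencing, with 34 libraries in 6 groups taken from the labels, whose replicates are separate mice. The authors deposited expected counts per gene, made with STAR and Salmon on mouse build GRCm39 per the submitters' processing notes (versions not given in the sources used here), without normalization for depth or length. Of the columns in the table, 1 matched no sample and was not used. The letter x is missing from the symbols of the table, so 1316 symbols were restored by gene identifier. Of the deposited expected counts 4.97% were not whole, and all were rounded for the count model.

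In R 4.3.3, edgeR 4.0.16 was used with TMM scaling, filterByExpr by group and a quasi-likelihood fit with 1 mean per genotype and time, which gave a common biological coefficient of variation of 0.302. Log2 CPM carried a prior count of 2. Contrasts were 6 and 24 against 0 hours, 24 against 6 hours, SIRTintKO against WT at each time, and the interactions. P-values were adjusted by Benjamini-Hochberg over 14980 genes, and DESeq2 1.42.0, other scalings and filters, and fits without single livers were alternatives. On simulated data with 200 changed genes among 14562, edgeR called 186 of them and 5 others for SIRTintKO against WT at 24 hours. The changed genes were drawn from those above 1 CPM, and the raised ones had a median fitted log2 fold change of 2.035. All changes were set to the same size, up or down, so the detection of smaller differences was not measured. No simulated liver was set apart from its group, so the simulation does not measure performance on livers as uneven as those at 24 hours. Between same-numbered livers the correlation of deviations ran from -0.2941 to 0.2116, and the numbers belong to different mice, so livers were not paired.

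The members and lists were chosen with earlier results of these data known. Named were the 2 members of highest mean CPM in each role group, up to 6 called members of at least 1 CPM per direction and comparison, members with an adjusted p under 0.05 between genotypes or in an interaction, and *Oas1c* and *Sp100*. Other members are named where a group is described, after their values were seen. RefSeq promoter windows are on GRCm38.p6, not the build of the counts, and were used for their letters and RefSeq positions alone. No window was matched for 9 members: *Gbp9*, *Zbp1*, *Ifi27*, *Parp9*, *Ifi204*, *Oas2*, *Iigp1*, *Parp14* and *Usp18*.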

Additional observations from a re-analysis of the deposited data

Results flagged for a closer look

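Among 180 groups of livers tested for the 30 genes of the naming rule, a single liver lay far outside the others in 13, where chance alone gives about 9 at 5%. At 24 hours, WT liver 2 was far below the other 3 WT livers in *Irgm2* (6.06 CPM, others from 25.6 to 29.1), *Irf9* (5.54 CPM) and *Usp18* (2.57 CPM). SIRTintKO liver 2 was far above the others in *Irgm1* (65.3 CPM, others from 25.8 to 36.97) and *Psmb9* (12.3 CPM). At 6 hours, WT liver 1 was lowest in *Oasl1* (1.60 CPM) and *Tgtp1* (0.656 CPM), WT liver 2 lowest in *Ifi205* (0.598 CPM) and WT liver 6 highest in *Ifit2* (2.33 CPM). Before PHx, WT liver 2 was highest in *Stat2* (105 CPM, others up to 67.7) and WT liver 4 lowest in *Bst2* (123 CPM), while SIRTintKO liver 2 was lowest in *Oas2* (1.84 CPM) and SIRTintKO liver 3 lowest in *Ifi205* (0.136 CPM).

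The genotypes differed in their change from 6 to 24 hours in *Ifi205*, by 4.77 ± 0.91 on the log2 scale (edgeR adjusted p 0.0297), and in *Ifi204*, by 1.54 ± 0.34 (adjusted p 0.0351). Neither was called with a replicate block or in a fit of only the groups compared, and *Ifi204* lost its call without liver 2 of both genotypes at 24 hours. For the change of *Ifi205* from 0 to 24 hours, every SIRTintKO liver lay above and every WT liver below the mean of its own genotype at 0 hours, with an interaction of 3.42 ± 0.88 that missed the threshold (adjusted p 0.122).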

How the results depend on the processing

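Single named members were followed only in comparisons where they had been called or had passed the adjusted p. Their values in other comparisons, some of them near 0, were not followed. None of the values followed changed sign under the alternatives run. Some medians, which were not tested, did, among them the WT type I median at 24 against 6 hours, at -0.27 without WT liver 4 at 24 hours, and the IFN-γ median between genotypes at 6 hours, at -0.08 without SIRTintKO liver 1 at 6 hours. Of the single-member values followed, leaving aside the fits without single livers, 305 kept their side of the threshold and 33 did not. DESeq2 called 2 members in the interaction at 24 hours, and upper-quartile scaling called 3 in WT livers between 6 and 24 hours. Testing every gene with a count called 1 in the interaction of 24 against 6 hours. With at least 10 counts in every library, which leaves fewer genes, 7 members were called at 24 against 0 hours in WT livers, 1 (WT) and 9 (SIRTintKO) at 24 against 6 hours and 1 in the interaction of the latter, and the WT type I median at 24 against 6 hours was 0.69. A replicate block on liver number called 0 in that interaction, and *Psmb9* and *Bst2* (-0.95 and -0.99, SIRTintKO at 24 against 0 hours) and the WT rises of *Tgtp1* and *Oasl1* (adjusted p 0.0568 and 0.0663) lost their calls. With the block *Ifit2* lost its SIRTintKO call at 6 hours and gained one at 24 against 0 hours, *Ifit1* lost and *Irgm2* gained a SIRTintKO call at 24 against 6 hours, and *Ifi205* was called lower in WT livers at 24 against 6 hours. A fit of the groups compared alone called 2 in WT livers at 24 against 6 hours, 0 between genotypes at 24 hours and 0 in the interaction of 24 against 6 hours. Without a fold threshold, 30 and 19 members passed in WT livers at 6 and 24 hours against 0 hours, 15 in SIRTintKO livers at 24 against 0 hours and 22 at 24 against 6 hours. Testing against the fold threshold itself (glmTreat) called 2 and 3 at 6 hours in WT and SIRTintKO livers, 0 and 2 at 24 against 0 hours, 0 and 1 at 24 against 6 hours, 0 between genotypes at 24 hours and 0 in the interaction of 24 against 6 hours. Broader lists gave a WT type I median of -0.85 at 24 against 0 hours. Without liver 2 of both genotypes at 24 hours, chosen after seeing the data, 10 members were called in WT livers at 24 against 6 hours, 1 between genotypes and 1 in the interaction of 24 against 6 hours, with IFN-γ medians of 0.15 between genotypes and -0.26 in that interaction. Without WT livers 1 and 2 at 24 hours, 1 was called in WT livers at 24 against 0 hours, 2 between genotypes and 1 in the interaction at 24 hours, and the WT type I median at 24 against 0 hours was -0.89. Calls over all genes moved as well. With at least 10 counts in every library, 1167 of 10701 genes were called at 24 against 0 hours in WT livers. The main fit called 2354 of 14980. Shares over all genes are not given for the other counts in this paragraph and the next. Changed counts are therefore not read as particular to the members. The causes were not tested.

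With each liver left out in turn, the members called ranged from 15 to 23 (WT) and 14 to 22 (SIRTintKO) at 6 hours, 9 to 18 and 5 to 8 at 24 against 0 hours, 1 to 9 and 9 to 20 at 24 against 6 hours, and 2 to 8 between genotypes at 24 hours, 0 to 3 in the interaction at 24 hours and 0 to 4 in that of 24 against 6 hours. The type I median of the last ranged from 0.61 to 1.20. Low counts limit *Ifit2*, *Ifit3b*, *Oas1a*, *Oas1c*, *Oas1g*, *Oas3*, *Gbp3*, *Tgtp1*, *Ifi205*, *Ifi44* and *Cmpk2*, whose values rest on under 10 counts in some livers.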

Other observations

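Interferon-induced genes outside the 45 members, a list of 36 tested genes chosen with earlier results known, were read in the same way. At 6 hours 13 were called lower in WT livers, beside 8.4% of all genes, and 11 in SIRTintKO livers, beside 8.7%, and 0 were called higher, beside 7.17% and 7.86%. *Gbp10*, a guanylate-binding protein of the IFN-γ response, had 8.56, 9.71 and 12.5 CPM in the lowest, median and highest WT livers at 0 hours and 0, 0.147 and 0.729 CPM at 6 hours, without overlap. Its log2 fold changes were -5.43 ± 0.70 in WT and -5.43 ± 0.75 in SIRTintKO livers, with edgeR adjusted p-values of 4.61e-07 and 1.73e-06. *Gbp6* had -3.51 ± 0.52 and -3.22 ± 0.55, and *Mx1*, an antiviral GTPase of the type I response, had -2.57 ± 0.45 and -1.73 ± 0.48.

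At 24 hours 2 of the 36 were called higher in SIRTintKO than in WT livers, beside 1.38% of all genes. A fit of only the groups compared called 0 of 13974 genes in this contrast. *Cxcl10*, a chemokine that attracts T cells, had 1.05 to 5.23 CPM in the 4 WT livers and 4.50, 24.6 and 197 CPM in the lowest, median and highest SIRTintKO livers, with overlap, at 3.96 ± 0.82 (edgeR adjusted p 0.00779). *Gbp5*, a guanylate-binding protein that promotes inflammasome assembly, had 0.0571 to 0.647 CPM in WT livers, which are low levels. The lowest, median and highest SIRTintKO livers had 0.360, 0.648 and 4.62 CPM, with overlap, and the median was close to the highest WT liver. Its difference was 2.62 ± 0.79 (edgeR adjusted p 0.0444). Neither *Cxcl10* nor *Gbp5* was followed in the fits that left livers out.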
